A study of Mus musculus with 12 samples.

Results

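Skeletal muscle contractile and energy genes were examined in the adipose tissue of mice on a high-fat diet time course. The group held 34 named genes of the 18193 genes measured, listed with earlier results of these data known. Each was read from 1 probe set, that of the highest average over the 12 arrays. By role, 14 genes belong to fast fibres, 8 to slow fibres, 7 to the sarcomere and cytoskeleton of both fibre types, and 5 to calcium release, energy supply and oxygen storage. All 34 had a probe set, and no filter on low signal was applied.

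The samples were adipose tissue of group-housed C57Bl/6 mice, with no genetic change named. In order of time on the diet they were 4 arrays of mice kept on standard chow (13% of calories as fat), 4 of mice given a high-fat diet (46% of calories as fat) for 5 days from an age of 6 weeks, and 4 of mice given that diet for 14 days from the same age. The sex and the fat depot are not given, nor is the age at which chow mice were sampled, so age and diet cannot be told apart. The labels call the samples of a group replicates and do not say that each came from its own mouse, so the spread between them may in part be technical.

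Skeletal muscle contracts when myosin heads of the thick filament pull on actin of the thin filament, under the control of troponin and tropomyosin, which respond to calcium released from the sarcoplasmic reticulum. Fast and slow fibres build this machinery from different genes of the same families, and fast fibres also carry their own calcium pump, calcium store protein and calcium buffer. White fat cells do not form sarcomeres, but fat pads lie against muscle, and blood vessels in fat hold smooth muscle, which shares a few of these genes.

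All levels are log2 signals, so a difference of 1 is a doubling of signal, and levels are compared between arrays for 1 probe set and not between probe sets. Array medians ran from 8.09 to 8.14 and pairs of arrays correlated at 0.956 to 0.997 over all probe sets. The 9 measured adipocyte markers averaged 13.87 to 14.34, lowest in 14-day array 4. Several arrays stood apart in markers of other cells. Epididymal Spink8 and Adam7 were high in 5-day arrays 1 to 3 and 14-day array 4, and liver genes varied widely within every group, from 8.81 in chow array 2 to 13.40 in 5-day array 4 as a mean of 8 genes. Chow array 3 and 5-day array 2 held the highest muscle signals, and 14-day array 4 held the highest smooth muscle signals, with 10 markers averaging 12.77 there, against 9.48 to 11.25 in the other 11 arrays.

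The highest muscle signals lay in 2 arrays of different diet groups. The 34 genes averaged 10.56 in 5-day array 2 and 10.81 in chow array 3, while the other 10 arrays lay between 7.85 and 8.37. For 28 of the 34 genes these were the 2 highest of the 12 arrays, against 1.46% of all genes. Each array was also set against the median of the other 3 arrays of its own group, gene by gene. In 5-day array 2, 26 of the 34 genes stood more than 1 log2 unit above that median, where 0.748% of all genes did. In chow array 3 this held for 28 of the 34, against 0.896% of all genes. As the 34 genes were listed with earlier results of these data known, these counts are a description and not a test. Since the sample is a piece of tissue, more muscle fibres and more of these RNAs per cell cannot be told apart.

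**Figure D1:**
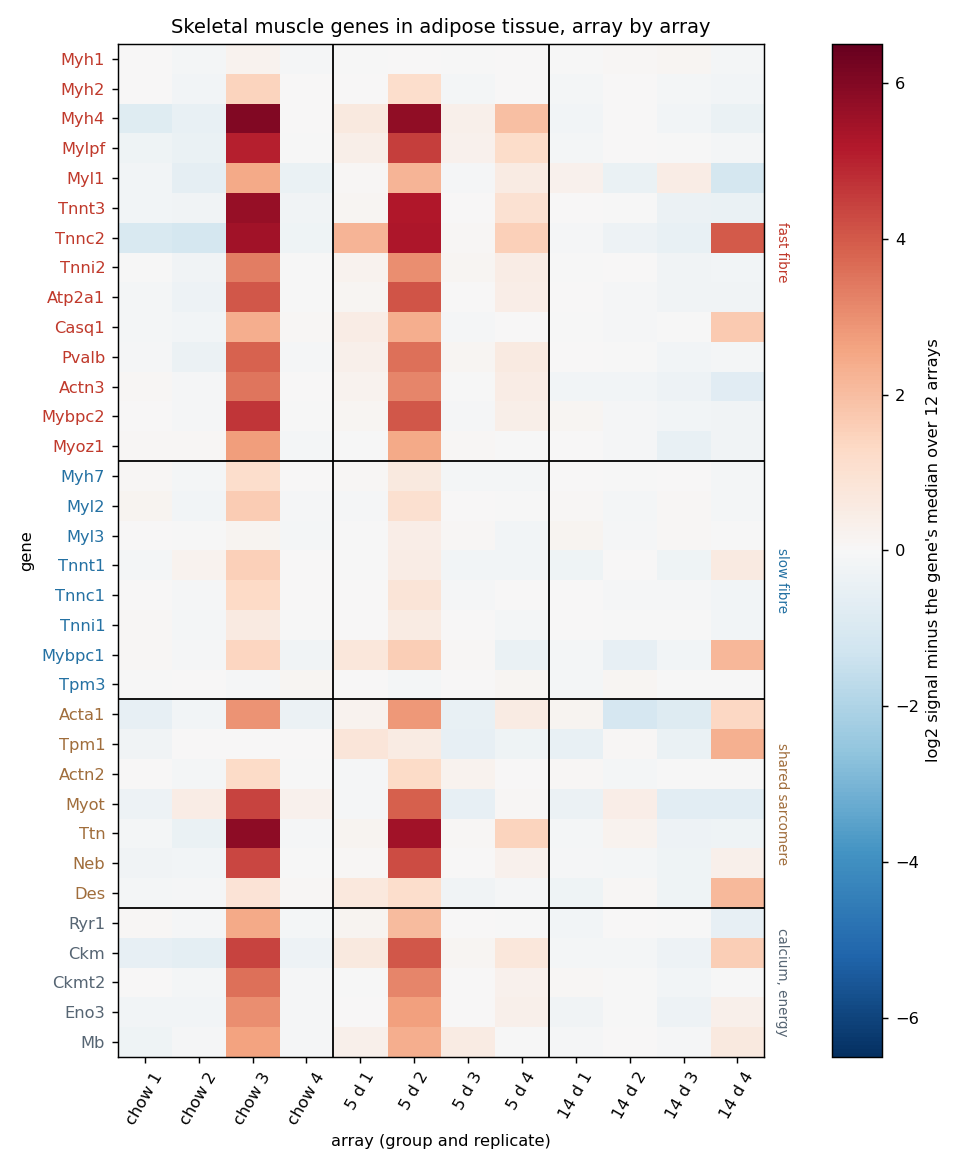
Log2 signal of the 34 genes (rows, grouped by role) in the 12 arrays (columns, chow, 5 days and 14 days), shown as the difference from each gene's own median over the 12 arrays. Columns of 5-day array 2 and chow array 3 are dark across most fast-fibre, sarcomere and energy genes, the slow-fibre rows are paler, and 14-day array 4 is high in a few rows only, among them Tnnc2 and Tpm1.

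Most myosin genes of fast fibres were far higher in these 2 arrays. Myh4 encodes the heavy chain of type IIb fibres, the fastest of the mouse. Its signal was 5.80, 6.09, 12.62 and 6.58 in chow arrays 1 to 4, 7.22, 12.32, 6.93 and 8.56 in 5-day arrays 1 to 4, and 6.39, 6.58, 6.40 and 6.17 in 14-day arrays 1 to 4. It exceeded the median of the other arrays of its group (its companions) 34.2-fold in 5-day array 2 and 92-fold in chow array 3, and the next highest array was 5-day array 4. Mylpf, the regulatory light chain of fast myosin, stood at 7.10, 6.93, 12.42 and 7.34 in the chow arrays, 7.75, 11.84, 7.64 and 8.55 in the 5-day arrays, and 7.24, 7.38, 7.31 and 7.25 in the 14-day arrays. It was thus 17-fold above its companions in 5-day array 2 and 39.9-fold in chow array 3, and the 14-day arrays lay close together. Myl1, the essential light chain of fast fibres, read 11.00, 10.59, 13.63 and 10.71 on chow, 11.21, 13.35, 11.10 and 11.68 at 5 days, and 11.44, 10.70, 11.63 and 9.99 at 14 days. The same 2 arrays were highest for Myl1, and 14-day array 4 was the lowest of all 12.

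Myh2, the heavy chain of type IIa fibres, gave weaker signals with the same 2 arrays on top. They were 5.57, 5.39, 7.01 and 5.61 on chow, 5.57, 6.70, 5.46 and 5.60 at 5 days, and 5.45, 5.57, 5.45 and 5.39 at 14 days. Myh1, the heavy chain of type IIx fibres, was the one fast-fibre gene without the pattern, at 7.07, 6.92, 7.29 and 7.00 on chow, 7.05, 7.08, 7.03 and 7.11 at 5 days, and 7.06, 7.12, 7.17 and 6.92 at 14 days. Its groups overlapped throughout and the whole range over 12 arrays was 0.37. This rests on the probe set, since the other 2 probe sets of Myh1 read 10.66 and 9.57 in 5-day array 2 and 10.85 and 10.18 in chow array 3, and 7.56 and 7.03 or less in every remaining array. Myh1, Myh2 and Myh4 are close relatives, and how far their probe sets detect each other was not tested.

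Promoter sequences are shown for 4 members that mark the contrast between arrays: the fast heavy chain Myh4, the fast light chain Mylpf, the skeletal actin of both fibre types, and a slow-fibre troponin. They come from RefSeq on GRCm38.p6 and cover 250 bases before to 50 bases after the transcription start, 5′ to 3′ on the strand of the gene. Capitals mark matches on either strand to the E-box (CANNTG, the letters bound by MyoD and related factors, whose matches can overlap other motifs), the MCAT element (CATTCCT), the MEF2 motif or the CArG box (both given by name). Myh4 lies on the plus strand at chr11:67237562-67237861, Mylpf on the plus strand at chr7:127211358-127211657, Acta1 on the minus strand at chr8:123894726-123895025 and Tnnt1 on the minus strand at chr7:4515926-4516225.
Myh4: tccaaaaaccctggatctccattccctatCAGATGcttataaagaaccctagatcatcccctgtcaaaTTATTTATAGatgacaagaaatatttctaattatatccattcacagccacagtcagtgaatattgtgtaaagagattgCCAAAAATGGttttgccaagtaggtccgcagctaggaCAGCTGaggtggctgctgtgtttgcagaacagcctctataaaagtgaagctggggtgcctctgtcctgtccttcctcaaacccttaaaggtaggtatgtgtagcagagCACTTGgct
Mylpf: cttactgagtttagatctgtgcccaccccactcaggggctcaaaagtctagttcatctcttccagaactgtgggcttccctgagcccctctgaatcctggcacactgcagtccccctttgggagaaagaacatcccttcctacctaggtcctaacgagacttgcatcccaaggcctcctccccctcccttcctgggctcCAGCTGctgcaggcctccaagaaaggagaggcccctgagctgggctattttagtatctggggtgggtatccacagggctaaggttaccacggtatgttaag
Acta1: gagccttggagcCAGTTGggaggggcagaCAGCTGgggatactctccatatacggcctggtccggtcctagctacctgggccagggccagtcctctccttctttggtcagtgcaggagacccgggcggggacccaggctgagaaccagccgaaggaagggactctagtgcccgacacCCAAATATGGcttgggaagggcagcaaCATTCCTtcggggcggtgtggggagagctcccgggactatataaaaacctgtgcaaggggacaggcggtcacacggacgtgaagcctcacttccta
Tnnt1: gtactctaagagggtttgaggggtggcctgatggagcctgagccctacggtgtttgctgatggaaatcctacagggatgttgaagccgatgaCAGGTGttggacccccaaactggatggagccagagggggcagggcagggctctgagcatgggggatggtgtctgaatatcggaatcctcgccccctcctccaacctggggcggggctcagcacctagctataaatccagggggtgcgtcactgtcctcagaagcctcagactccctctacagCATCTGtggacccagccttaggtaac

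The Myh4 window held 3 E-boxes, 1 MEF2 match and 1 CArG match, and the Acta1 window held 2 E-boxes, 1 MCAT match and 1 CArG match. Mylpf held 1 E-box and Tnnt1 held 2. A promoter was at hand for 28 of the 34 genes (35 windows, since some genes have several). An E-box occurred in 31 of the 35 windows (25 of these 28 genes), and 72.3% of 32851 mouse promoters of the same length held one. MCAT occurred in 4 of the 35 windows, those of Mybpc2, Myl3, Acta1 and Tpm1 (5.36% of all promoters). MEF2 occurred in 4, of Myh1, Myh4, Pvalb and Ttn (3.19%), and CArG in 3, of Myh4, Myl3 and Acta1 (1.63%). These are matches of letters and not measured binding sites.

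The thin-filament switch of fast fibres was high in the same arrays as fast myosin. Tnnt3, fast troponin T, which ties the complex to tropomyosin, read 7.26, 7.22, 13.11 and 7.19 on chow, 7.58, 12.63, 7.45 and 8.41 at 5 days, and 7.45, 7.42, 7.06 and 6.99 at 14 days. It exceeded its companions 33.2-fold in 5-day array 2 and 59.1-fold in chow array 3. Tnni2, the inhibitory subunit, did so 6.92-fold and 10.3-fold. Tnnc2, the calcium-binding subunit, stood at 7.11, 6.96, 13.55 and 7.82 on chow, 10.29, 13.33, 8.16 and 9.64 at 5 days, and 8.00, 7.76, 7.61 and 12.05 at 14 days. Its order therefore differed from that of the other fast troponins, with 14-day array 4 and 5-day array 1 next after the 2 muscle-high arrays.

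Calcium handling of fast fibres gave the same 2 arrays. Atp2a1, the pump that returns calcium to the sarcoplasmic reticulum, read 8.77, 8.60, 12.92 and 8.90 on chow, 9.05, 12.99, 8.93 and 9.32 at 5 days, and 8.91, 8.81, 8.70 and 8.67 at 14 days. It was 15.4-fold above its companions in 5-day array 2 and 17.7-fold in chow array 3. Pvalb, the soluble calcium buffer that speeds relaxation, read 8.69, 8.41, 12.60 and 8.68 on chow, 9.12, 12.38, 8.89 and 9.36 at 5 days, and 8.81, 8.75, 8.61 and 8.64 at 14 days. Casq1, which stores calcium inside the reticulum, had 11.02 in both high arrays. The structural genes Mybpc2 (fast myosin-binding protein C), Actn3 (the Z-disc actinin of fast fibres) and Myoz1 (a Z-disc protein that binds calcineurin) exceeded their companions 14.9-fold, 7.7-fold and 5.5-fold in 5-day array 2, and 25.6-fold, 11-fold and 6.27-fold in chow array 3.

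Slow-fibre genes were higher in the same 2 arrays but by much less. Myh7, the slow heavy chain, read 6.03, 5.81, 7.12 and 5.96 on chow, 6.04, 6.62, 5.82 and 5.83 at 5 days, and 5.96, 5.92, 6.01 and 5.82 at 14 days. Myl2, the regulatory light chain of slow and ventricular myosin, read 6.60, 6.21, 8.07 and 6.31 on chow, 6.31, 7.47, 6.42 and 6.39 at 5 days, and 6.48, 6.29, 6.48 and 6.28 at 14 days. Both genes had the same 2 arrays on top, with folds over the companions of 1.72 for Myh7 and 2.1 for Myl2 in 5-day array 2, and 2.23 and 3.4 in chow array 3. Myl3, the essential light chain of slow and ventricular muscle, read 8.56, 8.48, 8.71 and 8.39 on chow, 8.50, 8.96, 8.63 and 8.36 at 5 days, and 8.69, 8.44, 8.63 and 8.50 at 14 days. With 8.69 in 14-day array 1 next to 8.71 in chow array 3, that chow array did not stand out for Myl3.

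Among the slow troponins, Tnnt1 read 6.76, 7.12, 8.45 and 6.92 on chow, 6.90, 7.38, 6.74 and 6.72 at 5 days, and 6.63, 6.94, 6.61 and 7.48 at 14 days. Chow array 3 was its highest array, but 14-day array 4 came before 5-day array 2. Tnnc1, shared by slow and cardiac muscle, read 8.16, 8.07, 9.42 and 8.15 on chow, 8.18, 8.99, 8.08 and 8.15 at 5 days, and 8.20, 8.09, 8.09 and 7.98 at 14 days. Tnni1 read 8.05, 7.87, 8.54 and 7.97 on chow, 7.98, 8.49, 8.00 and 7.86 at 5 days, and 8.01, 7.95, 7.96 and 7.79 at 14 days. Both had the 2 muscle-high arrays on top, 1.8-fold for Tnnc1 and 1.42-fold for Tnni1 in 5-day array 2, and 2.41-fold and 1.48-fold in chow array 3. Mybpc1, slow myosin-binding protein C, was instead highest in 14-day array 4 at 9.39, followed by 8.83 in 5-day array 2 and 8.66 in chow array 3. Tpm3, a tropomyosin of slow fibres that most other cells also make, read 12.96, 13.01, 12.92 and 13.14 on chow, 13.04, 12.87, 13.02 and 13.15 at 5 days, and 12.89, 13.11, 12.97 and 13.00 at 14 days, with no array apart.

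Of the 7 sarcomere and cytoskeleton genes of both fibre types, 5 had the 2 muscle-high arrays on top. Ttn, the giant spring that spans the sarcomere from Z-disc to midline, read 6.67, 6.33, 12.57 and 6.69 on chow, 6.94, 12.23, 6.87 and 8.24 at 5 days, and 6.65, 7.02, 6.45 and 6.49 at 14 days. Acta1, skeletal actin, read 10.67, 10.99, 14.12 and 10.78 on chow, 11.39, 14.02, 10.72 and 11.71 at 5 days, and 11.38, 10.07, 10.36 and 12.51 at 14 days. Ttn stood 39.1-fold above its companions in 5-day array 2 and 59.5-fold in chow array 3, and Acta1 6.21-fold and 10.1-fold. Neb, the ruler of the thin filament, followed with 17.5-fold and 23.4-fold, Myot, a Z-disc protein, with 15.3-fold and 17.4-fold, and Actn2, the Z-disc actinin of all fibres, with 2.32-fold and 2.43-fold. Des, the intermediate filament of every muscle type, read 9.41, 9.44, 10.39 and 9.58 on chow, 10.23, 10.69, 9.28 and 9.47 at 5 days, and 9.27, 9.60, 9.26 and 11.65 at 14 days. Tpm1, a tropomyosin of striated and smooth muscle, read 10.76, 11.01, 11.01 and 11.02 on chow, 11.79, 11.54, 10.47 and 10.73 at 5 days, and 10.54, 11.09, 10.58 and 13.34 at 14 days. For Des and Tpm1, 14-day array 4 was the highest of all arrays, and for Acta1 it came next after the 2 muscle-high arrays.

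The energy genes were highest in the same 2 arrays. Ckm, the cytosolic creatine kinase of muscle, read 8.22, 8.13, 13.16 and 8.40 on chow, 9.38, 12.81, 8.88 and 9.51 at 5 days, and 8.63, 8.62, 8.41 and 10.37 at 14 days. Mb, myoglobin, which stores oxygen, read 7.76, 7.99, 10.65 and 7.98 on chow, 8.37, 10.42, 8.58 and 8.04 at 5 days, and 7.99, 8.05, 7.99 and 8.68 at 14 days. The folds over the companions were 10.8 for Ckm and 4.14 for Mb in 5-day array 2, and 30.7 and 6.4 in chow array 3, and Ckm was also 3.38-fold above its companions in 14-day array 4. Ckmt2, the mitochondrial creatine kinase, reached 8.96-fold in 5-day array 2 and 12.9-fold in chow array 3, Eno3, the muscle enolase of glycolysis, 6.06-fold and 9.22-fold, and Ryr1, the calcium release channel, 4.08-fold and 5.69-fold.

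Fast and slow genes were then compared array by array, as the median over each group of the difference from the other 3 arrays of the same diet group. The 14 fast genes stood at a median of 3.10 log2 units in 5-day array 2 and 3.69 in chow array 3, and the 8 slow genes at 0.71 and 1.21. More than 1 log2 unit was reached by 13 of 14 fast genes in each of these arrays, and by 2 of 8 slow genes in 5-day array 2 and 5 of 8 in chow array 3. The gap between the fast and the slow median was 2.39 in 5-day array 2 and 2.48 in chow array 3. In the other 10 arrays it ran from −0.42 to 0.40. The median of all genes lay between −0.07 and 0.03 in every array. A mean signal above the 40th percentile of all probe sets (7.64) was found for 4 of the 8 slow genes and 11 of the 14 fast genes. That mean includes the 2 muscle-high arrays. The fast genes Mylpf, Tnnt3 and Mybpc2 passed although their medians over the other 10 arrays were 7.32, 7.34 and 7.13. With only those genes the gap was 2.78 in 5-day array 2 and 3.52 in chow array 3. Since these 2 arrays helped decide which genes were kept, that gap is no independent check.

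**Figure D2:**
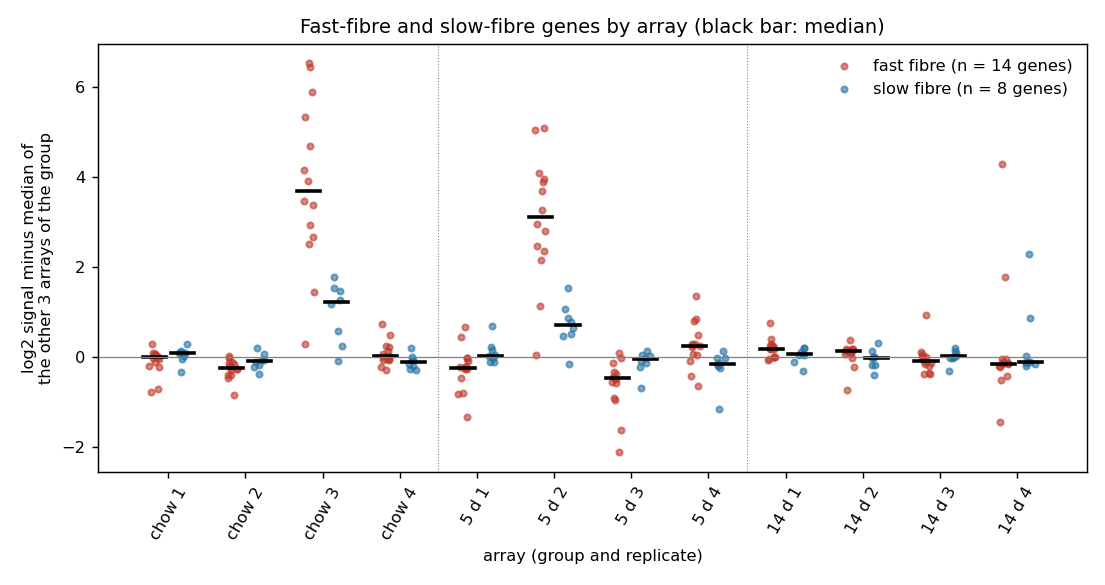
Difference of each gene from the median of the other 3 arrays of its diet group, in log2 units, for 14 fast-fibre genes and 8 slow-fibre genes in each of the 12 arrays, with black bars at the medians. The medians in 5-day array 2 are 3.10 for fast and 0.71 for slow genes, in chow array 3 they are 3.69 and 1.21, and in the other arrays both stay near 0.

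The choice of probe set mattered for some genes, among them Myh1, described above, while 10 of the 14 fast genes had a single probe set. Some probe sets of Tpm1, Tpm3, Myl3 and Tnni2 that were not chosen, because their mean was lower, differed between arrays more than the chosen ones. One of Tpm1 stood 2.53 log2 units above its companions in 5-day array 2 and 2.60 in chow array 3, against 0.81 and 0.00 for the chosen probe set. It read 12.94 and 13.09 in these arrays and 13.32 in 14-day array 4. Another of Tpm1 read 7.90, 8.36 and 6.79, and the last was highest in 14-day array 4 at 10.74. The top array of Tpm1 thus depends on the probe set. One of Tpm3 stood at 0.98 and 1.31, against −0.17 and −0.09, and one of Myl3 at 0.74 and 1.23, against 0.45 and 0.23. A probe set of the fast gene Tnni2 stood at 4.47 in 5-day array 2 and 5.65 in chow array 3, against 2.79 and 3.37. Other probe sets that were not chosen differed less than the chosen ones. A Ckm probe set stood at 0.37 in 5-day array 2 and 0.66 in chow array 3, against 3.44 and 4.94. For Mb the values were 0.14 and 0.01, against 2.05 and 2.68, and for Myoz1 0.26 and 0.39, against 2.46 and 2.65. Those of Ttn ranged from 0.14 to 4.02 in 5-day array 2, against 5.29. The other Myh4 probe set stood at 4.15 and 4.41, against 5.09 and 6.52. With the probe set of the highest single value for each gene, the fast minus slow gap was 3.08 in 5-day array 2 and 3.20 in chow array 3. The fast genes had their highest values in these arrays, so the rule used the values compared and gives no independent check. It moved the fast genes Tnni2 and Myh1 and the slow gene Mybpc1 to probe sets that stood higher there. For the slow genes Tpm3 and Myl3 it kept the chosen probe sets.

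The 2 muscle-high arrays were also set against each other. Of the 34 genes, 6 were higher in 5-day array 2 than in chow array 3 (17.6%, against 49.8% of all genes), and the median difference was −0.30 log2 units, against 0.00 for all genes. The fast median was −0.30 and the slow median −0.24, so both sets were lower by a like amount in the 5-day array. Tnnt1 differed most, at 7.38 in 5-day array 2 and 8.45 in chow array 3. Tpm1 and Des went the other way, by 0.53 and 0.30. For Tpm1 this depends on the probe set. Those not chosen read 12.94, 7.90 and 8.75 in 5-day array 2 and 13.09, 8.36 and 8.66 in chow array 3. These are single arrays, so no test applies.

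**Figure D3:**
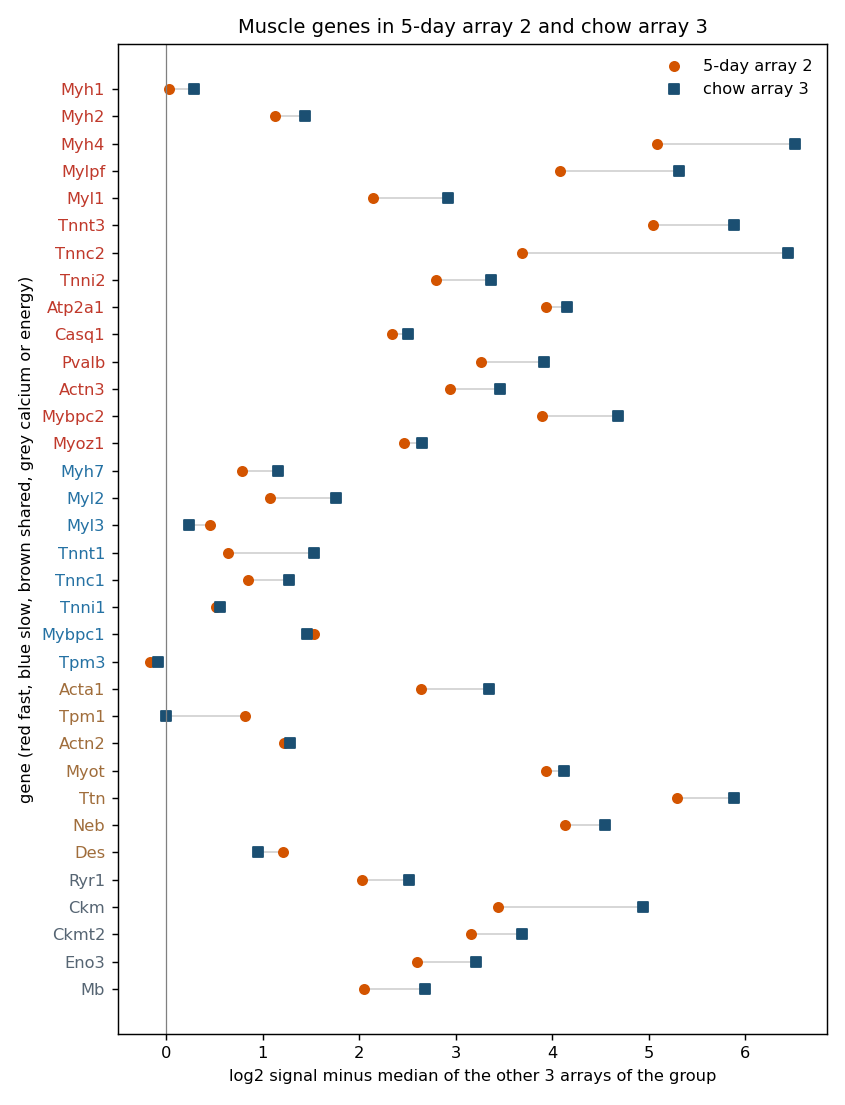
Difference of each of the 34 genes from the median of the other 3 arrays of its diet group, in log2 units, in 5-day array 2 (circles) and chow array 3 (squares), with genes ordered by role. Fast genes such as Myh4, Tnnt3 and Mylpf lie far to the right in both arrays, slow genes lie between −0.17 and 1.76, and most squares lie to the right of their circles.

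Markers of other cells were read beside these genes. The 8 genes of the liver list, of which 7 differed between arrays and Cyp2e1 was high in all 12 (14.88 to 15.04), averaged 11.95 in 5-day array 2, where the other 5-day arrays had 9.93 to 13.40, and 12.40 in chow array 3, where the other chow arrays had 8.81 to 10.74. The liver genes were also high in 5-day array 4 (13.40), 14-day array 1 (13.06) and 14-day array 3 (11.98), while the 34 muscle genes averaged 8.37, 7.98 and 7.85 there. Smooth muscle markers averaged 11.13 in 5-day array 2, close to the 11.25 of 5-day array 1, and 9.98 in chow array 3, within the 9.69 to 10.12 of the other chow arrays. Epididymal Spink8 and Adam7 read 14.34 and 13.09 in 5-day array 2, like 5-day arrays 1 and 3, and 8.38 and 8.37 in chow array 3, while the other 5 measured epididymal genes had ranges of 0.27 to 0.70 over the 12 arrays. None of 9 cardiac markers and none of 9 adipocyte markers stood more than 1 log2 unit above their companions in either array. The part of these other cells in the muscle signal was not tested.

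Fewer of the 34 genes were high in 14-day array 4. There 7 of the 34 genes stood more than 1 log2 unit above the other 14-day arrays, where 4.8% of all genes did. Tnnc2 exceeded them 19.6-fold, Tpm1 6.79-fold, Des 5.23-fold, Mybpc1 4.9-fold and Acta1 4.43-fold, and Casq1 and Ckm 3.38-fold each. Of these 7, Tnnc2, Casq1, Ckm, Acta1 and Mybpc1 also stood more than 1 log2 unit above their companions in both muscle-high arrays. Des did so in 5-day array 2 only, at 1.21. Other genes that led in the muscle-high arrays were not among the 7. Myh4 was at 6.17, Mylpf at 7.25, Tnnt3 at 6.99 and Ttn at 6.49 in this array, each below the median of the other 14-day arrays, and Myl1 was 1.45 log2 units below it. In the same array 9 of 10 smooth muscle markers stood more than 1 log2 unit above the other 14-day arrays, with Cnn1 at 13.73, Actg2 at 14.00 and Myh11 at 14.06. Spink8 read 14.96 there and 6.85 to 8.87 in the other 14-day arrays. Of the muscle genes outside the 34, Smpx, a small protein of striated muscle, read 9.61 and Myom2, a protein of the sarcomere midline, 10.33 in this array.

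**Figure D4:**
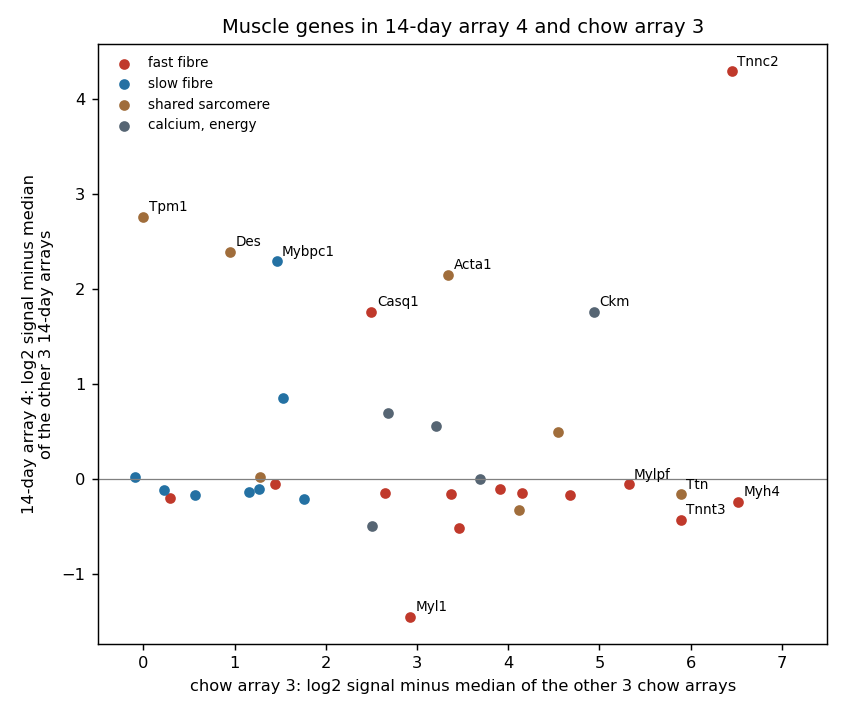
Difference of each of the 34 genes from the median of the other 3 arrays of its diet group, in log2 units, in 14-day array 4 (vertical axis) against chow array 3 (horizontal axis), coloured by role. Tnnc2 is high on both axes, and Myh4, Ttn, Tnnt3 and Mylpf are high only in chow array 3. Tpm1 (chosen probe set), Des and Mybpc1 stand higher in 14-day array 4 than in chow array 3.

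Diet groups were compared with limma over all 18193 genes, with calls at an adjusted p under 0.05 (Benjamini-Hochberg). Of the 3 comparisons, each group enters 2, so they are not independent. At 5 days against chow, 0 of the 34 genes were called, and 0% of all genes were called higher and 0% lower. At an unadjusted p under 0.05 there were 0 muscle genes, against 4.24% of all genes higher and 5.39% lower. The 34 differences ran from −0.38 for Tnnt1 to 1.49 for Tnnc2, with 23 of 34 positive (49.2% of all genes) and a median of 0.15, against −0.002 for all genes. The fast median was 0.23 and the slow median −0.06. Mylpf averaged 8.95 ± 1.97 at 5 days and 8.45 ± 2.65 on chow (SD, n = 4 each), a difference of 0.50 ± 1.21 (SE; limma adjusted p = 0.935). Myh4 differed by 0.99 ± 1.49 (limma adjusted p = 0.883), Atp2a1 by 0.28 ± 1.04 (0.96) and Ckm by 0.67 ± 1.16 (0.9). For the slow genes Myh7 and Tnnt1 the differences were −0.15 ± 0.26 (0.901) and −0.38 ± 0.34 (0.783). None of these differences exceeded the spread between arrays by this test, and 0 of the 34 genes had all 5-day arrays above or all below the chow arrays (5.34% and 4.08% of all genes).

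At 14 days against chow, 0 of the 34 genes were called (0% of all genes higher and 0% lower), and 0 passed an unadjusted p under 0.05, against 3.02% of all genes higher and 3.96% lower. Of the 34 differences, 4 were positive (53.8% of all genes) and 30 negative, from −1.53 for Myot to 0.43 for Tpm1, with a median of −0.51 against 0.01 for all genes. The fast median was −0.89 and the slow median −0.24. Mylpf averaged 7.29 ± 0.06 at 14 days and 8.45 ± 2.65 on chow, a difference of −1.15 ± 1.21 (limma adjusted p = 0.868). Myh4 differed by −1.39 ± 1.49 (0.87), Atp2a1 by −1.02 ± 1.04 (0.868), Ckm by −0.47 ± 1.16 (0.94), Myh7 by −0.30 ± 0.26 (0.851) and Tnnt1 by −0.40 ± 0.34 (0.848). Actn3 alone had all 14-day arrays (7.72 to 8.26) below all chow arrays (8.34 to 11.91), as did 2.01% of all genes, and 0 of the 34 had all above (2% of all genes).

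At 14 against 5 days, 0 of the 34 genes were called (0% of all genes higher and 0% lower), and 0 passed an unadjusted p under 0.05, against 1.59% of all genes higher and 0.846% lower. Of the 34 differences, 3 were positive (54.6% of all genes) and 31 negative, from −2.37 for Myh4 to 0.25 for Tpm1, with a median of −0.82 against 0.009 for all genes. The fast median was −1.22 and the slow median −0.15. The differences were −1.65 ± 1.21 for Mylpf, −2.37 ± 1.49 for Myh4, −1.30 ± 1.04 for Atp2a1, −1.14 ± 1.16 for Ckm, −0.15 ± 0.26 for Myh7 and −0.02 ± 0.34 for Tnnt1, each with a limma adjusted p of 0.999. For 7 of the 34 genes, all of them fast, every 14-day array lay below every 5-day array: Myh4, Mylpf, Tnnt3, Tnni2, Atp2a1, Pvalb and Actn3. The same held for 0.346% of all genes, and the reverse for 0 of the 34 and 0.61% of all genes. Some margins were narrow. The highest 14-day and lowest 5-day values were 7.45 and 7.45 for Tnnt3, which differ only in later decimals. They were 8.91 and 8.93 for Atp2a1, 8.81 and 8.89 for Pvalb and 8.60 and 8.71 for Tnni2. For Actn3 they were 8.26 and 8.42, for Mylpf 7.38 and 7.64, and for Myh4 6.58 and 6.93.

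**Figure D5:**
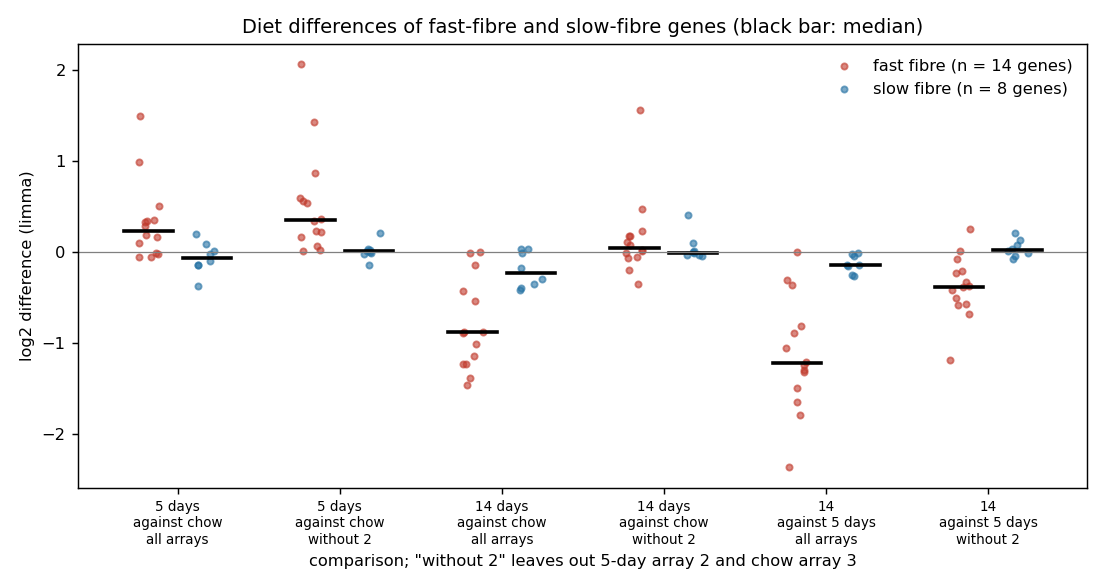
Log2 differences of the 14 fast-fibre and 8 slow-fibre genes (points, with bars at the medians) for the 3 diet comparisons, with all arrays and without chow array 3 and 5-day array 2. Medians of the fast genes are 0.23, −0.89 and −1.22 with all arrays and 0.35, 0.04 and −0.38 without the 2 arrays, while slow medians stay between −0.24 and 0.02.

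The comparisons were repeated without chow array 3 and 5-day array 2, which were left out because these genes were highest there, so that the remaining spread is smaller by choice. At 5 days against chow 30 of the 34 differences were then positive (48.8% of all genes), with medians of 0.35 for fast, 0.01 for slow and −0.004 for all genes. For 13 of the 34 genes every remaining 5-day array lay above every remaining chow array, against 9.82% of all genes. The 13 held 8 of the 14 fast and 0 of the 8 slow genes, and 0 of the 34 lay below (8.08% of all genes). Margins differed. The lowest 5-day and highest chow values were 5.71 and 5.70 for Neb, 8.93 and 8.90 for Atp2a1, and 8.88 and 8.40 for Ckm. Myh4 differed by 1.42 ± 0.38, Mylpf by 0.86 ± 0.21 and Pvalb by 0.53 ± 0.13 (SE), with Mylpf at 7.75, 7.64 and 8.55 at 5 days against 7.10, 6.93 and 7.34 on chow. No gene was called, and the lowest limma adjusted p among the 34 was 0.757. In 5-day array 4 alone, Myh4 and Ttn stood 2.54-fold and 2.46-fold above their companions, and this array also had the highest liver signals and the steepest 3′ to 5′ slope of the pyruvate carboxylase control probe sets (2.83 log2 units, against 1.59 to 2.18 in the other arrays). The part of either in these differences was not tested.

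At 14 days against chow the fast median without those arrays was 0.04 and the slow median −0.01, with 22 of 34 differences positive (52.4% of all genes), and no gene was called (lowest limma adjusted p among the 34 = 0.956). Ckm lay above chow in every 14-day array (2.65% of all genes did), and Actn3 lay below (3.09%). Each is 1 gene of the 34, near the share of all genes, and the margins were narrow. Ckm read 8.41 in 14-day array 3 and 8.40 in chow array 4. Actn3 read 8.26 in 14-day array 1 and 8.34 in chow array 2. At 14 against 5 days the fast median was −0.38 and the slow median 0.02, with 9 of 34 differences positive (52.9% of all genes). The 7 fast genes named above still had every 14-day array below every remaining 5-day array, against 0.764% of all genes (the reverse held for 0 of the 34 and 1.5% of all genes), with differences from −0.33 ± 0.11 for Atp2a1 to −1.19 ± 0.35 for Myh4, and an adjusted p of 1 (limma). Mylpf read 7.24 to 7.38 at 14 days and 7.64 to 8.55 in the remaining 5-day arrays. The margins of the 7 genes were those given above, since 5-day array 3 held the lowest 5-day value of each.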

How the data were processed

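RNA of 12 adipose samples was measured on single-colour Affymetrix arrays, after conversion with an oligo(dT) T7 primer into biotin-labelled RNA, per the labels' protocols. The authors deposited 1 table of 45098 probe sets, and its values were read as log2 signal from their range of 4.18 to 15.5; the summary of probes and the normalization are not given in the sources used here, and nothing was renormalized. Of the probe sets, 34945 carried 1 gene symbol in the platform annotation, 932 several, 9160 none and 61 were controls. For each of 18193 genes the probe set of highest mean was used, without a filter on low signal. Groups came from the sample titles.

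A single fit over the 3 groups was made with limma 3.58.1 under R 4.3.3 (lmFit and eBayes with trend, two-sided), with Benjamini-Hochberg adjustment over all genes and a threshold of 0.05. The fit was tested on simulated data. Fast and slow genes were compared by the difference of each array from the median of the other 3 arrays of its group. Arrays give no counts, so their number limits the precision. The 34 members and all other lists were chosen with earlier results of these data known. Named genes were all 34 members, 6 with limma differences and SE, up to 4 genes of largest range from each other list, and the 10 genes most correlated with Mylpf; the members without overlap between groups and the other genes named beside them were picked after their values were seen. Alternatives were a filter at the 40th percentile, averaged probe sets per gene or the probe set of highest single value, median-centred and quantile-normalized arrays, eBayes without trend and robust, the replicate number as a block, a fit of 2 groups alone, array weights, and leaving out arrays singly or chow array 3 with 5-day array 2.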

Additional observations from a re-analysis of the deposited data

Results flagged for a closer look

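In each group of 4 arrays, the gap between the extreme array and its nearest neighbour was divided by the range of the group, for 34 genes and 3 means (111 groups of values). Values above Dixon's critical value for groups of 4 occurred in 51 of these, where chance gives about 1 in 20. The 34 genes were listed with earlier results of these data known, and the share over all genes was not computed. These counts are therefore a description and not a test of an excess over chance. Genes of the same array are not independent, and the difference between diet groups in this respect was not tested.

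In chow array 3, the highest array of its group, 25 genes passed. Among fast genes the ratio was 0.99 for Tnnt3, 0.98 for Mybpc2, 0.96 for Actn3, 0.94 for Tnni2, 0.93 for Atp2a1 and Pvalb, 0.92 for Mylpf and Myoz1, 0.89 for Myh4 and Casq1, 0.87 for Myl1 and Tnnc2 and 0.86 for Myh2. Slow genes were fewer, with 0.94 for Tnnc1 and 0.83 for Myh7 and Mybpc1. Of the shared and energy genes, the ratio was 0.97 for Eno3, 0.96 for Neb and Ckmt2, 0.95 for Ckm, 0.94 for Ttn, 0.93 for Ryr1, 0.92 for Mb, 0.91 for Acta1 and 0.87 for Actn2. The mean of all members gave 0.96, the fast mean 0.94 and the slow mean 0.92.

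In 5-day array 2, again the highest of its group, 15 genes passed. The ratio was 0.96 for Myoz1, 0.90 for Atp2a1, 0.89 for Myh2 and Mybpc2, 0.88 for Tnni2, 0.87 for Pvalb and 0.84 for Actn3 among the fast genes, and 0.91 for Myl2 and 0.90 for Tnnc1 among the slow ones. It was 0.94 for Neb, 0.91 for Ckmt2, 0.90 for Ryr1, 0.88 for Eno3, 0.86 for Myot and 0.84 for Ckm, and 0.87 for the mean of all members. Myh4 and Mylpf did not pass there, and 5-day array 4 stood next below it at 8.56 and 8.55.

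In 14-day array 4, 6 genes passed as highest of their group: Casq1 at 0.99, Tnnc2 and Mb at 0.91, Ckm at 0.89, Des at 0.86 and Mybpc1 at 0.85. Chow array 1 was lowest for Tpm1 (0.98), although the chow values of Tpm1 spanned only 10.76 to 11.02.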

How the results depend on the processing

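The number of members called stayed at 0 in all 3 comparisons under every alternative run (72 of 72 counts). With the filter at the 40th percentile only 24 members were tested. In the main fit and in that without both chow array 3 and 5-day array 2, 0% of all genes were called. For the other alternatives the share of all genes called is not given. The counts therefore do not set the members apart from other genes. With the replicate number as a block, 0 members were called in each comparison. The numbers are not shown to pair the samples, since same-numbered arrays correlated at −0.72 to 0.41 in their deviations from the group means. Signs of single genes depended on which array was left out. For 5 days against chow, leaving out single arrays gave −0.46 to 1.82 for Mylpf, −0.20 to 2.60 for Myh4, −0.70 to 1.32 for Atp2a1, −0.22 to 1.90 for Ckm, −0.33 to 0.15 for Myh7 and −0.56 to 0.00 for Tnnt1; the low end came without 5-day array 2 (chow array 1 for Tnnt1) and the high end without chow array 3, while Atp2a1 was also negative without chow array 1 (−0.07), 2 (−0.12) or 4 (−0.02) and Mylpf without chow array 2 (−0.01). Array weights gave −0.10 for Mylpf and −0.18 for Atp2a1. For 14 days against chow the ranges were −1.66 to 0.17 for Mylpf, −2.04 to 0.23 for Myh4, −1.42 to 0.02 for Atp2a1 and −0.92 to 0.76 for Ckm, each high end without chow array 3, and 0.17, 0.23, 0.02 and 0.76 without both arrays. For 14 against 5 days they were −0.24 to 0.03 for Myh7 and −0.21 to 0.13 for Tnnt1, the high ends without 5-day array 2, and 0.03 and 0.13 without both; Tnnt1 was also positive without 14-day array 1 or 3 (0.08 each). Medians moved likewise. The fast median was −0.47 without 5-day array 2 and 1.10 without chow array 3 at 5 days against chow, and also negative without chow array 1 (−0.06), 2 (−0.10) or 4 (−0.03) and with array weights (−0.12); it was 0.49, 0.53 and 0.39 without 5-day array 1, 3 or 4. It was 0.04 without chow array 3 at 14 days against chow, and −0.38 without 5-day array 2 at 14 against 5 days. The fast minus slow gap was 3.52 in chow array 3 with the filter, which leaves 11 fast and 4 slow genes. It was 3.08 in 5-day array 2 and 3.20 in chow array 3 with the probe set of highest single value. Both settings choose by values that include these 2 arrays, so neither is an independent check of the gap. Of 189 other values for single genes, 181 kept their direction and their side of the threshold. No array was tested for muscle by an independent measure, and 4 arrays a group limit the precision.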

Other observations

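A part of the other skeletal muscle genes was high in the same 2 arrays. Of 35 measured genes of skeletal muscle outside the 34 members, 14 stood more than 1 log2 unit above their companions in 5-day array 2 (0.748% of all genes) and 16 in chow array 3 (0.896%), with medians over the 35 of 0.61 and 0.79. They averaged 8.72 and 8.85 there, against 7.51 to 7.99 in the other 10 arrays. Pygm, the muscle glycogen phosphorylase, read 10.98 in 5-day array 2 and 11.51 in chow array 3, and 7.66 to 8.12 elsewhere. Mylk4, a myosin light chain kinase, read 9.12 and 9.40, and 5.97 to 6.33 elsewhere. Smpx was high in 5-day array 2 (9.39), chow array 3 (9.57), 14-day array 4 (9.61) and 5-day array 1 (7.59). Myom2 followed another order, with 10.20 in 5-day array 3 and 10.33 in 14-day array 4, above 9.87 in 5-day array 2, 9.34 in 5-day array 1 and 8.87 in chow array 3. Apart from chow array 3, these were the arrays with high epididymal Spink8 and Adam7, and a link was not tested.

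Of 8 genes of satellite cells and myogenic factors, only Myf6, the myogenic factor of mature fibres, passed 1 log2 unit, at 6.87 in 5-day array 2 and 7.00 in chow array 3, against 5.63 to 5.77 elsewhere. Pax7, the marker of satellite cells, read 7.30 and 6.84 in those arrays, against 6.90 to 7.23 elsewhere. None of 5 genes of the neuromuscular junction, 6 of developing muscle, 6 of tendon, 3 of Schwann cells or 6 companions of the slow program (Casq2, Atp2a2 and others) passed 1 log2 unit in either array. In 14-day array 4, Ncam1, an adhesion molecule of developing muscle and of nerve and other cells, read 11.75, and it read 10.27 to 10.84 in 5-day arrays 1 to 3. There, 3 of 5 keratin genes of skin also stood more than 1 log2 unit above the other 14-day arrays. Among brown fat genes, Cox7a1, which muscle also makes, passed in chow array 3 (8.76, against 7.36 to 7.70 in the other chow arrays). In the high-fat arrays Cox7a1 read 7.58 to 9.03. It was also high in arrays without the muscle signals, with 8.84 in 5-day array 4, 8.64 in 14-day array 1 and 8.70 in 14-day array 3.

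Likeness to Mylpf was read as the Pearson correlation over the 12 arrays, as a description that rests mainly on chow array 3 and 5-day array 2. Of 18192 other genes ranked, 26 members lay in the first 100 and 20 in the first 50. Ttn and Pvalb led with 0.996 each, while Mybpc1 (0.549), Des (0.402), Tpm1 (0.035) and Tpm3 (−0.447) lay far below. The 10 genes outside the members with the highest values were Mylk4, Tcap, Trdn, Trim63, Tmod4, Pygm, Pfkm, Cmya5, Mss51 and Cacna1s, from 0.974 to 0.984. Of the first 100 genes, 21 came from the list of other skeletal muscle genes.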
